A study of Mus musculus with 2 samples.

Results

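The genes described here are 7 C-type lectin receptor genes of myeloid cells, of the 31054 features counted in each library. They were taken by symbol from a set list: the sugar-binding lectins Mrc1, Mgl2 and Clec10a, and 4 genes of the Clec4 cluster, Clec4e, Clec4d, Clec4n and Clec4a2. Both groups of lectins were followed across 3 cell classes and 2 libraries of cells from mouse tumours. The first library came from adult mice, aged 24 weeks, and the second from young mice, aged 4 weeks. In both, which are labelled d7, tumours were pooled and cells positive for mCherry, a red fluorescent protein, were sorted and sequenced with the 10x Genomics 3' v2 method, which tags each captured RNA with a unique molecular identifier (UMI). The study's title concerns the cross-presentation of tumour antigen to CD8 T cells in young hosts. The sources used here do not give the strain, the sex, the tumour type or the cells that carried the mCherry gene, and they name no other treatment or allele.

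C-type lectin receptors bind carbohydrates and other ligands at the surface of macrophages, dendritic cells and neutrophils. Mrc1, the mannose receptor, takes up mannosylated glycoproteins for endocytosis. Mgl2 and Clec10a encode MGL2 and MGL1, galactose-type lectins of macrophages. All 3 are known as genes that interleukin 4 induces in macrophages. The Clec4 genes encode pattern recognition receptors: Clec4e (Mincle), Clec4d (MCL) and Clec4n (Dectin-2) pair with the adaptor Fcer1g, whose ITAM motif signals through Syk and Card9, while Clec4a2 (DCIR) carries an inhibitory ITIM motif of its own that binds the phosphatases Ptpn6 and Ptpn11.

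The adult library held 6279 barcodes and 70988070 UMIs and the young library 7558 barcodes and 84862471 UMIs. After filtering, 5774 adult cells with a median of 9660 UMIs and 7090 young cells with a median of 9841.5 UMIs were kept. Csf1r cells, with at least 1 UMI of the macrophage growth factor receptor gene, made up 4498 adult cells (77.9%) and 5686 young cells (80.2%). Neutrophils, with at least 1% of UMIs from S100a8 and S100a9 and at most 1 Csf1r UMI, numbered 189 in the adult and 116 in the young library. Cells with at least 2 UMIs of Ccr7, the receptor of migrating dendritic cells, and at most 1 T cell receptor UMI numbered 75 and 70. The classes carried their markers. Neutrophil genes summed to 90674 and 64118 CPM (a gene's UMIs scaled to 1000000 UMIs of its class) in adult and young neutrophils, against 124 and 113 CPM in Csf1r cells, although Ly6g was found in only 2.12% and 6.03% of neutrophils. Mature dendritic cell genes summed to 4452 and 4229 CPM in adult and young Ccr7 cells, against 70.2 and 60.9 CPM in Csf1r cells. Macrophage genes summed to 2413 and 3039 CPM in Ccr7 cells and to 6746 and 7408 CPM in Csf1r cells, so Ccr7 cells also held macrophage RNA. The libraries shared 111 barcodes, of which 103 adult and 104 young ones were kept. Without them the adult over young ratios in Csf1r cells were 26.5 for Mgl2, 4.11 for Mrc1 and 0.534 for Clec4d.

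With 1 library per age there was no replicate and no test. Levels are CPM of the summed UMIs of a class, with exact Poisson 95% intervals, and ratios carry conditional binomial intervals. All intervals cover counting error only. The pool of tumours and the library differ between the ages as well and cannot be told apart from age. A gene counted as measured where 1 or both of the sums compared reached 10 CPM. It was called higher or lower between ages past 1.5-fold, and between classes past 2-fold, with an interval that excluded 1.

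The 7 genes lie at 3 places in the mouse genome (build mm10, GENCODE M21), and all are protein coding. Mrc1 (ENSMUSG00000026712) covers chr2:14229392-14332057 with up to 30 exons. Mgl2 (ENSMUSG00000040950, chr11:70130329-70137550) and Clec10a (ENSMUSG00000000318, chr11:70156197-70170834) are neighbours on the plus strand, 18.6 kb apart, with no coding gene between them. The Clec4 genes span 183 kb of chromosome 6 in the order Clec4a2 (ENSMUSG00000030148, chr6:123106428-123143999), Clec4n (ENSMUSG00000023349, chr6:123229843-123247021), Clec4d (ENSMUSG00000030144, chr6:123262111-123275265) and Clec4e (ENSMUSG00000030142, chr6:123281789-123289870). One other coding gene, Clec4b2, lies between Clec4a2 and Clec4n. Clec4e alone is on the minus strand, and the 3' ends of Clec4d and Clec4e face each other across 6.52 kb. Of the 60-base windows in the last 500 bases of their transcripts, 6.33% for Mgl2 and 10.7% for Clec10a also occur in other genes, in the case of Clec10a only in Mgl2. For Clec4a2 6.91% occur in Clec4a4 or Clec4b1. The authors' counting could divide or discard reads of these 3 genes, which makes their counts uncertain. Mrc1, Clec4e and Clec4d share no such window.

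The promoter table of RefSeq (GRCm38.p6) matched 5 of the 7 genes. Sequences are shown for the 4 genes on which the results turn: Mrc1 and Mgl2, the most different sugar-binding lectins between the libraries, and the adjacent Clec4d and Clec4e, which differed from each other between the libraries. Each is the 250 bases before the RefSeq start, 5′ to 3′ on the gene's strand, from chr2:14229164-14229413 (Mrc1, plus), chr11:70130107-70130356 (Mgl2, plus), chr6:123261857-123262106 (Clec4d, plus) and chr6:123289872-123290121 (Clec4e, minus). Capitals mark every match to the 8 motifs named below.
Mrc1: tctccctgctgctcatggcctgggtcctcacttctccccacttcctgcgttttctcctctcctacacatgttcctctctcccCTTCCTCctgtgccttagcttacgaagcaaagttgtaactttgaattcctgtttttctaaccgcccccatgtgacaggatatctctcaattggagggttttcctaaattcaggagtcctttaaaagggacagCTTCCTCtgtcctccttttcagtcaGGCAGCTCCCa
Mgl2: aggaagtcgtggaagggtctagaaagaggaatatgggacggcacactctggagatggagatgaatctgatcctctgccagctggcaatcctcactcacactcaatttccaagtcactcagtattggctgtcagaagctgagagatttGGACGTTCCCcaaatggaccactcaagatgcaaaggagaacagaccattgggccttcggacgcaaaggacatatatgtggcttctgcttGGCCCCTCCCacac
Clec4d: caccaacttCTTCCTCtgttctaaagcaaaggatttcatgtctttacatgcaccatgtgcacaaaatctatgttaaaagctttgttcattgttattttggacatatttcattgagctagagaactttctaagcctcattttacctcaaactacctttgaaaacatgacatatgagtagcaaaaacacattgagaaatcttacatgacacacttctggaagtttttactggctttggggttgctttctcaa
Clec4e: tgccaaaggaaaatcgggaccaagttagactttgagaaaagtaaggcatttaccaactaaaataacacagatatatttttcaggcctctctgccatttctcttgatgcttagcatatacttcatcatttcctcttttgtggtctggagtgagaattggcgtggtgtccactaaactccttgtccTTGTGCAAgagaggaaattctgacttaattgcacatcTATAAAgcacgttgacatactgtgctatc

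The motifs were searched on both strands: GAGGAAG (ETS family, PU.1 type), TTGCNNAA (C/EBP), TTCNNNGAA (STAT), the wider-spaced STAT6 motif, TGANTCA (AP-1), the NF-kappaB motif, TATAAA (TBP) and the interferon-stimulated response element. The Mrc1 window held GAGGAAG at 168 and 36 bases before the start, on the strand opposite the gene, and the NF-kappaB motif at 11 bases. In the Mgl2 window the NF-kappaB motif stood at 103 and at 14 bases before the start. The GENCODE starts of Mrc1 (14229392) and Mgl2 (70130329) lie inside these windows, before the RefSeq starts. The NF-kappaB matches at 11 bases (Mrc1) and 14 bases (Mgl2) thus lie within the genes as GENCODE gives them. The Clec4e window held TTGCNNAA at 66 and TATAAA at 29 bases, and the Clec4d window held GAGGAAG at 241 bases. Over the 250-base windows of 32851 RefSeq promoters, GAGGAAG was found in 10.6%, TTGCNNAA in 9.56%, the STAT6 motif in 5.85%, TTCNNNGAA in 7.02%, TGANTCA in 6.75%, the NF-kappaB motif in 45.8%, TATAAA in 12.4% and the interferon-stimulated response element in 2.98%. None of the 4 windows shown held a match to either STAT motif, to TGANTCA or to the interferon-stimulated response element. Matches to different motifs did not overlap in them. These are matches of letters and say nothing about binding.

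In Csf1r cells Mgl2 and Mrc1 were called higher in the adult library, while of the 4 Clec4 genes only Clec4d passed the 1.5-fold limit, in the opposite direction. Mgl2 stood at 47.7 CPM in adult and 1.88 CPM in young Csf1r cells (2654 and 133 UMIs), a ratio of 25.3 (21.3 to 30.4). Mrc1 stood at 36.2 CPM in adult and 9.05 CPM in young cells (2016 and 640 UMIs), a ratio of 4.00 (3.66 to 4.38). Both genes passed the level filter through the adult library alone. Clec10a stood at 7.47 CPM in adult and 2.79 CPM in young cells (416 and 197 UMIs), a ratio of 2.68 (2.26 to 3.19), and was below the level filter in both libraries, so it was not called. Together the 3 genes reached 91.4 CPM in adult and 13.7 CPM in young Csf1r cells, a ratio of 6.66 (6.21 to 7.14).

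Clec4d, whose product pairs with Mincle, was lower in the adult library: 348 CPM in adult and 675 CPM in young Csf1r cells (19385 and 47683 UMIs), a ratio of 0.516 (0.508 to 0.525), or 1.94-fold lower. Clec4e, its neighbour 6.52 kb away, stood at 377 CPM in adult and 351 CPM in young cells, a ratio of 1.07 (1.05 to 1.09). The 2 genes thus differed in direction, and Clec4e stayed within the 1.5-fold limit. Clec4n stood at 476 CPM in adult and 527 CPM in young cells, a ratio of 0.903 (0.889 to 0.917). The inhibitory receptor gene Clec4a2 was at 166 CPM in adult and 174 CPM in young cells, a ratio of 0.954 (0.928 to 0.980). The sum of the 4 genes was 1367 CPM in adult and 1727 CPM in young cells, a ratio of 0.792 (0.785 to 0.799).

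Of the 7 genes, 6 were measured in Csf1r cells, 2 of them called higher and 1 called lower. Over all 6734 genes measured there, 1.65% were called higher and 2.91% lower, and the median log2 ratio was -0.04. The median log2 ratio was 0.02 over the 6 measured lectins, 0.10 over all 7 with Clec10a, and -0.11 over the 4 Clec4 genes.

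**Figure D1:**
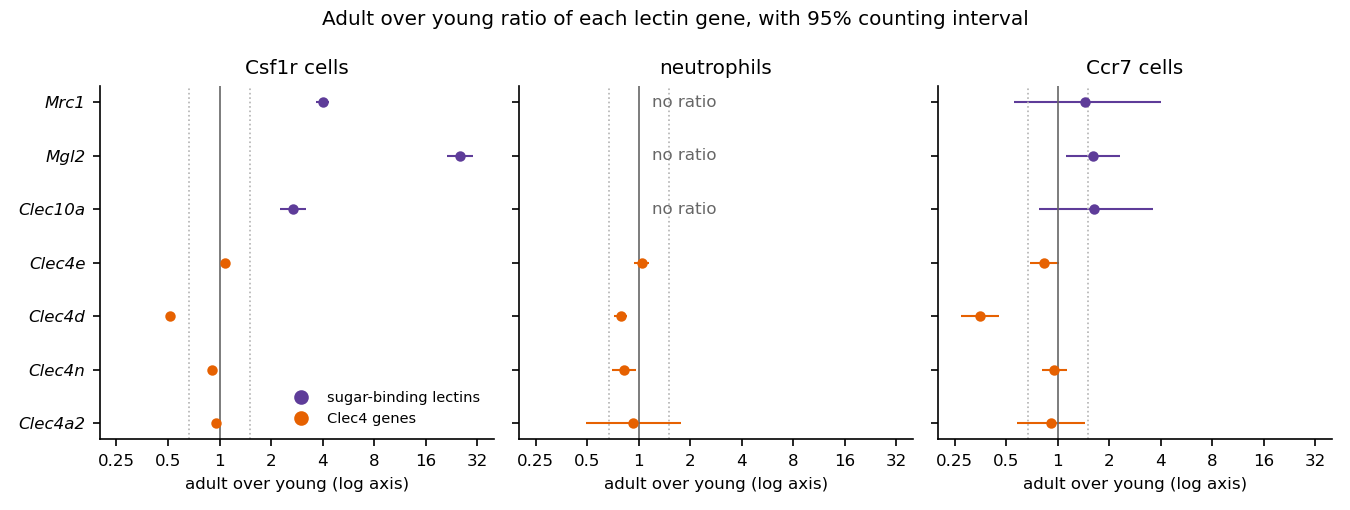
Ratio of adult over young for each lectin gene in Csf1r cells, neutrophils and Ccr7 cells, on a log axis, with 95% counting intervals; dotted lines mark 1.5-fold and "no ratio" marks genes with 0 UMIs in young neutrophils. In Csf1r cells Mgl2, Mrc1 and Clec10a lie right of 1 (25.3, 4.00 and 2.68) and Clec4d left of it (0.516), while Clec4e, Clec4n and Clec4a2 lie inside the dotted lines.

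Counted per cell, the sugar-binding lectins were found in a minority of Csf1r cells and the Clec4 genes in most. A UMI of Mrc1 was found in 19.4% of adult and 6.91% of young Csf1r cells. Mgl2 was found in 15.8% of adult and 1.11% of young cells, and Clec10a in 6.69% and 2.90%. Positive cells also held more copies in the adult library: those with Mgl2 averaged 3.73 UMIs in adult and 2.11 in young cells, and those with Mrc1 averaged 2.31 in adult and 1.63 in young cells. Cells with 5 or more Mgl2 UMIs numbered 171 in the adult and 8 in the young library, and the highest count was 44 in an adult and 8 in a young cell. Thinned to 2000 UMIs per cell, which kept 4442 adult and 5568 young cells, Mrc1 was found in 5.94% and 1.80% of cells and Mgl2 in 5.47% and 0.216%.

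Clec4d was detected in 82.3% of adult and 94.2% of young Csf1r cells, and the median cell held 3 and 7 of its UMIs. The difference was seen across most of the class, and 37.1% of adult and 65.6% of young cells held 5 or more. Clec4e was found in 82.4% of adult and 82.0% of young cells, with a median of 3 UMIs in both. Clec4n was found in 76.5% of adult and 83.0% of young cells, with medians of 3 and 4 UMIs, and up to 107 and 148 UMIs in a single cell. Clec4a2 was found in 62.5% of adult and 67.8% of young cells, with a median of 1 UMI in both.

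**Figure D2:**
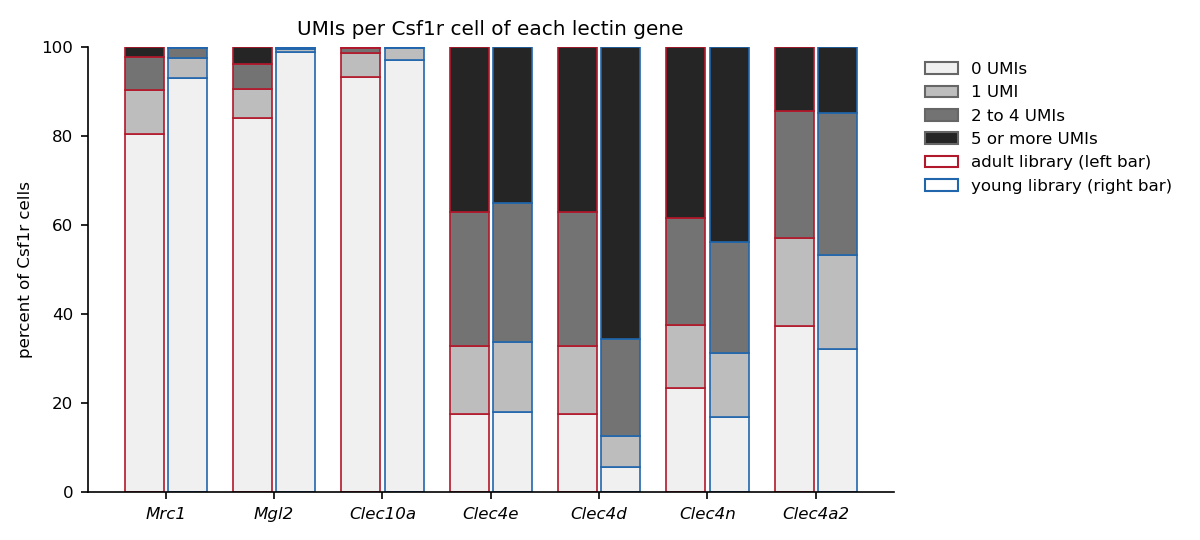
Percent of Csf1r cells with 0, 1, 2 to 4 and 5 or more UMIs of each lectin gene, adult library in the left bar and young library in the right bar of each pair. The bars of Mrc1, Mgl2 and Clec10a are mostly cells without a UMI in both libraries, and the dark part for Clec4d covers 37.1% of adult and 65.6% of young cells.

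Csf1r cells had medians of 10288.5 UMIs in the adult and 10510 UMIs in the young library, and the ratios were recomputed in 4 bins of depth. From the shallowest to the deepest bin the Clec4d ratio was 0.593, 0.544, 0.497 and 0.475. The Mgl2 ratio was 83.2, 42.1, 39.5 and 20.2, and the Mrc1 ratio 3.99, 2.53, 3.85 and 4.91. Young Mgl2 stood at only 0.269, 0.553, 1.21 and 3.14 CPM in these bins, so the size of its ratios is uncertain, most of all in the shallowest bin. In each of the 4 bins the direction of these 3 genes was that of the whole class. The Clec4e ratio was 1.15, 1.29, 1.03 and 0.873, so it changed direction in the deepest bin. Csf1r cells with at least 20 mCherry UMIs were 3.56% of adult and 3.27% of young cells of the class.

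Neutrophils had the highest Clec4e and Clec4d levels of the 3 classes in CPM. Their Clec4e level was 2386 CPM in the adult and 2293 CPM in the young library, and that of Clec4d was 2738 CPM and 3491 CPM. Counted in UMIs per cell, neutrophils and Csf1r cells were closer. Clec4e averaged 4.95 in adult and 5.23 in young neutrophils, against 4.67 and 4.37 in Csf1r cells. Clec4d averaged 5.68 and 7.97 in neutrophils, against 4.31 and 8.39 in Csf1r cells. For Clec4e, Csf1r cells over neutrophils gave 0.158 (0.148 to 0.169) in the adult and 0.153 (0.141 to 0.166) in the young library, and for Clec4d 0.127 (0.120 to 0.135) and 0.193 (0.181 to 0.206). Clec4n had 855 CPM in adult and 1043 CPM in young neutrophils, and Csf1r cells over neutrophils gave 0.557 and 0.505, short of 2-fold. Clec4a2 was the exception within the cluster, with 66.3 CPM in adult and 71.8 CPM in young neutrophils (26 and 19 UMIs). Its Csf1r level was higher in both libraries, with ratios of 2.50 (1.70 to 3.82) and 2.42 (1.55 to 4.02). These calls depended on the scaling. The median log2 ratio over all genes was 0.87 in the adult and 0.67 in the young library. Under median-of-ratios scaling Clec4a2 had 1.73 and 1.80 and was not called, and Clec4n had 0.386 and 0.376 and was called lower in Csf1r cells.

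The 189 adult neutrophils held 3 UMIs of Mrc1, 1 of Mgl2 and 0 of Clec10a, and the 116 young neutrophils held 0 of all 3. For Mrc1 Csf1r cells over neutrophils gave 4.73 (1.62 to 23.0) in the adult library, and for Mgl2 18.7 (3.35 to 738). In the young library 3 UMIs would be 11.3 CPM and the Poisson upper bound of 0 UMIs is 13.9 CPM, both above the 9.05, 1.88 and 2.79 CPM of Mrc1, Mgl2 and Clec10a in young Csf1r cells, so a difference was not detectable at this depth. Neutrophils were also shallow, with medians of 1900 UMIs in the adult and 2130.5 UMIs in the young library. At this depth a UMI of Clec4e was still found in 81.5% of adult and 87.1% of young neutrophils, and one of Clec4d in 93.7% and 94.8%.

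Between Csf1r cells and neutrophils, 3 of 6 measured lectin genes were called higher and 2 lower in the adult library, where 39.7% and 13.2% of 7036 genes were. In the young library it was 1 higher and 2 lower of 4, against 29% and 12% of 7130 genes. Adult Mrc1 and Mgl2 passed the level filter through Csf1r cells alone, so they could only be called higher there. With so few genes beside these shares, the higher counts are no result about the lectins. Macrophage genes summed to 1072 CPM in adult and 937 CPM in young neutrophils, 7 of 8 of them with a UMI, and Mertk was at 0 in both. The part of that RNA in the Clec4n and Clec4a2 levels of neutrophils was not tested.

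Between ages, none of the 4 measured genes was called in neutrophils, where 3.06% of 5757 genes were higher and 5.89% lower. Clec4d pointed the same way as in Csf1r cells, with a ratio of 0.784 (0.717 to 0.857), and Clec4n had 0.820 (0.697 to 0.965). Clec4e gave 1.04 (0.938 to 1.15) and Clec4a2 0.924 (0.492 to 1.77). Clec4a2 and Clec4n changed direction with the processing: with neutrophils set at 5% S100a8 and S100a9 and 0 Csf1r UMIs Clec4a2 gave 2.34, and thinned to 2000 UMIs Clec4n gave 1.18, neither of them called. The median log2 ratio over all genes with a ratio was -0.15 here. Relative to that shift Clec4d and Clec4n lay closer to the other genes.

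**Figure D3:**
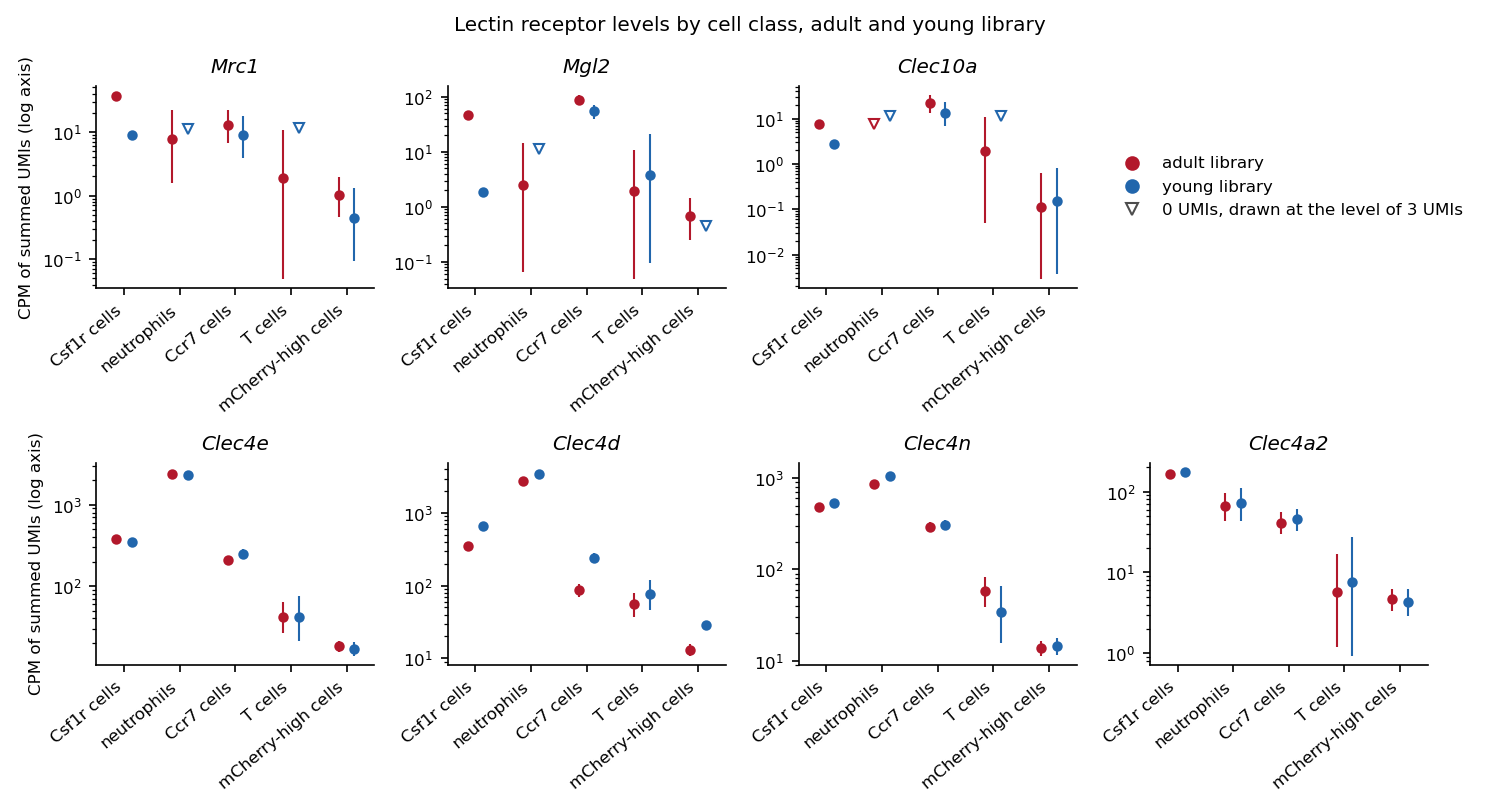
Level of each lectin gene in 5 cell classes (mCherry-high cells have at least 20 mCherry UMIs and 0 Csf1r UMIs), as CPM of summed UMIs on a log axis with exact Poisson 95% intervals, adult library left of young library; open triangles mark 0 UMIs and stand at the level that 3 UMIs would give. Clec4e and Clec4d are highest in neutrophils (2386 and 2738 CPM in the adult library), Clec4a2 in Csf1r cells, and Mgl2 and Clec10a in Ccr7 cells.

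Ccr7 cells had the highest Mgl2 and Clec10a levels of the 3 classes in both libraries. Mgl2 stood at 86.8 CPM in adult and 54.4 CPM in young Ccr7 cells (88 and 49 UMIs), in 34.7% and 18.6% of cells. Ccr7 cells over Csf1r cells gave 1.82 (1.46 to 2.25) for Mgl2 in the adult library and 28.9 (20.4 to 40.4) in the young library. The 2 libraries differed less in the Mgl2 level of Ccr7 cells than in that of Csf1r cells, where the young library had 1.88 CPM. Clec10a stood at 21.7 CPM in adult and 13.3 CPM in young Ccr7 cells (22 and 12 UMIs), with ratios over Csf1r cells of 2.91 (1.80 to 4.46) and 4.78 (2.43 to 8.54). A single adult cell held 14 of the 22 Clec10a UMIs. In Ccr7 cells that also had a UMI of Fscn1, a marker of mature dendritic cells, the adult Clec10a ratio was 0.469 and the young 7.23. Mgl2 stood at 50.9 CPM (33.8 to 73.6) in adult and 43.1 CPM in young Ccr7 cells with Fscn1. Its adult ratio over Csf1r cells was 1.05 there. Mrc1 stood at 12.8 CPM in adult and 8.89 CPM in young Ccr7 cells (13 and 8 UMIs), with ratios over Csf1r cells of 0.354 (0.188 to 0.607) and 0.981 (0.422 to 1.95).

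The Clec4 genes were lower in Ccr7 cells than in Csf1r cells. Clec4d stood at 85.9 CPM in adult and 244 CPM in young Ccr7 cells, which gave 0.247 (0.197 to 0.304) and 0.362 (0.316 to 0.414) over Csf1r cells. Clec4a2 stood at 41.4 CPM and 45.5 CPM, with ratios of 0.250 and 0.262. Clec4e, at 206 CPM in adult and 248 CPM in young Ccr7 cells, gave 0.547 and 0.705, and Clec4n, at 291 and 305 CPM, gave 0.612 and 0.580. The last 2 genes did not pass 2-fold in the class as a whole. In Ccr7 cells with 0 Csf1r UMIs both did, with 0.162 in the adult and 0.430 in the young library for Clec4e and 0.174 and 0.267 for Clec4n, and in those with a Fscn1 UMI with 0.236 and 0.339 for Clec4e and 0.149 and 0.260 for Clec4n. Of 7 measured genes 1 was called higher and 3 lower in the adult library, against 8.79% and 9.26% of 7010 genes. Of 6 measured genes 2 were called higher and 2 lower in the young library, against 8.61% and 9.78% of 7047 genes. Those called higher, Clec10a in both libraries and Mgl2 in the young one, passed the level filter through Ccr7 cells alone. Such genes could only be called higher in Ccr7 cells, so the higher counts are no test.

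Between ages, Ccr7 cells had 1 of 7 lectin genes higher and 1 lower, where 3.9% and 5.28% of 6724 genes were called. Mgl2 was the higher one, with a ratio of 1.60 (1.11 to 2.31), and Clec4d the lower one, with 0.351 (0.271 to 0.452). Without the Ccr7 cells that held a Csf1r UMI the Mgl2 ratio was 1.10 and no longer called, from 25 and 18 UMIs. In those cells the Clec4d ratio was 0.309, from 7 and 18 UMIs, and Clec4e (0.406) and Clec4n (0.586) were called lower as well. The Clec4d levels behind that ratio, 18.7 CPM in adult and 60.4 CPM in young cells, were below those of T cells, 55.6 CPM and 76.6 CPM, so they do not stand above that background. In the deeper mCherry-high cells Clec4d was lower, at 13.1 CPM in adult and 28.6 CPM in young cells. The young interval there (24.7 to 32.9) lay below that of these young Ccr7 cells (35.8 to 95.5), and the adult intervals (10.8 to 15.7 and 7.50 to 38.5) overlapped. In Ccr7 cells without Csf1r, adult Clec4e stood at 61.3 CPM (38.9 to 92.0), against 42.2 CPM (26.4 to 63.9) in adult T cells. Adult Clec4n stood at 82.6 CPM (56.2 to 117), against 57.5 CPM (38.8 to 82.1). These intervals overlap, so the adult levels do not stand apart from T cells. The young levels, 151 and 141 CPM, were above the 42.1 and 34.5 CPM of young T cells. In the whole Ccr7 class Mrc1 gave 1.44 (0.555 to 4.02), Clec10a 1.63 (0.772 to 3.61), Clec4e 0.833 (0.686 to 1.01), Clec4n 0.953 (0.806 to 1.13) and Clec4a2 0.910 (0.578 to 1.44).

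The Ccr7 class was mixed, and the lectin levels are given for its parts. These splits by single genes were chosen after the values were seen. Ccr7 cells with a Csf1r UMI, 40 adult and 37 young, held 92.0% of adult and 91.8% of young Clec4d UMIs and 97.6% and 90.2% of Clec4a2 UMIs of the class. Those without one had Mgl2 at 66.6 CPM in the adult and 60.4 CPM in the young library. In cells with a UMI of Flt3, a growth factor receptor gene of dendritic cells (27 adult and 20 young cells), Mgl2 stood at 119 CPM in the adult and 69.8 CPM in the young library. Mrc1 had 0 UMIs in them, which allows up to 9.77 CPM in adult and 15.2 CPM in young cells, against 20.4 CPM and 12.2 CPM in Ccr7 cells without Flt3, so that in the young library a difference was not detectable. Clec4n stood at 29.1 CPM and 78.0 CPM in them, against 447 CPM and 390 CPM in Ccr7 cells without Flt3. Clec10a had no common direction over the Csf1r split, with 10.7 CPM in adult and 23.5 CPM in young cells without Csf1r and 28.2 CPM and 8.30 CPM in cells with it. With Flt3 it stood at 5.30 CPM in adult and 8.21 CPM in young cells, against 31.5 CPM and 15.2 CPM without.

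T cells, which should lack these genes, gave the background, and mCherry-high cells are given beside them. T cells had at least 3 UMIs of Cd3d, Cd3e, Cd3g and Trac, mCherry-high cells at least 20 mCherry UMIs, and both had 0 Csf1r UMIs. What kind of cell the mCherry-high cells are was not tested. The Clec4 genes stood between 5.75 and 57.5 CPM in adult and between 7.66 and 76.6 CPM in young T cells, and between 4.63 and 18.3 CPM in adult and between 4.34 and 28.6 CPM in young mCherry-high cells. Each of the 4 was higher in Csf1r cells of the same library. Clec4d was at 55.6 CPM in adult and 76.6 CPM in young T cells and at 13.1 CPM and 28.6 CPM in mCherry-high cells. A UMI of Clec4e was found in 20.2% of adult and 15.8% of young T cells and in 32.8% and 32.5% of mCherry-high cells. The sugar-binding lectins had at most 1 UMI each in T cells and 9 UMIs (Mrc1, adult) in mCherry-high cells. Median depths were 4223 and 5585 UMIs in adult and young T cells and 28745 and 25044 UMIs in mCherry-high cells. Adult Ccr7 cells held Clec4d at 85.9 CPM (68.8 to 106), where adult T cells held 55.6 CPM (37.3 to 79.9), and these intervals overlap.

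Csf1r cells were also read in 7 overlapping ranges, each the top 20% of the cells of both libraries by share of UMIs in a set of genes. They are ranges and not cell types. Mgl2 was highest in the MHC class II range (H2-Aa, H2-Ab1, H2-Eb1 and Cd74), with 114 CPM in adult and 8.69 CPM in young cells, and lowest in the monocyte range (Ly6c2 and Plac8), with 3.50 CPM and 0.292 CPM. Mrc1 was highest in the heme range (Hmox1 and Fabp5), with 66.5 CPM in adult and 19.6 CPM in young cells, followed by the C1q range (C1qa, C1qb and C1qc), with 57.5 CPM and 13.6 CPM. It was also lowest in the monocyte range, with 6.63 CPM and 1.66 CPM. Clec10a stayed between 4.89 and 10.4 CPM in adult and between 0.838 and 4.69 CPM in young ranges, and reached 10 CPM only in the adult MHC class II and interferon (Ifit1, Ifit2, Ifit3 and Rsad2) ranges.

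The Clec4 genes ran otherwise. Clec4e was highest in the inflammatory range (Nos2, Il1a and Slpi), with 853 CPM in adult and 702 CPM in young cells. Next came the monocyte range, with 787 CPM and 646 CPM. Clec4e was lowest in the cycling range (Mki67, Top2a and Birc5), with 194 CPM and 199 CPM. The inflammatory and monocyte ranges were shallower, with adult and young medians of 8331.5 and 9362 UMIs and of 8228 and 9194 UMIs. In the cycling range the medians were 15851 and 14295 UMIs. Toward the deepest depth bin Clec4e fell from 647 to 201 CPM in adult and from 561 to 230 CPM in young cells. Clec4d fell with depth as well. The part of depth in the order of the ranges was not tested. Clec4d was highest in the inflammatory range, with 705 CPM in adult and 1197 CPM in young cells, and next in the heme range, with 661 CPM and 1168 CPM. With the top 10% of cells in place of the top 20% the adult order turned, with 829 CPM in the heme and 778 CPM in the inflammatory range. Clec4n was highest in the inflammatory range too, with 787 CPM and 934 CPM, followed in the adult library by the heme range (704 CPM) and in the young library by the MHC class II range (797 CPM). Clec4a2 was highest in the C1q range, with 216 CPM in adult and 233 CPM in young cells.

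Within all 7 ranges the sugar-binding lectins were higher and Clec4d lower in the adult library. The adult over young ratio ran from 12.0 to 54.1 for Mgl2, from 1.84 to 5.84 for Clec10a and from 0.438 to 0.612 for Clec4d. The Mgl2 ratios rest on few young UMIs, 3 of them in the monocyte range at 12.0, and with the top 10% they ran from 9.06 (MHC class II range) to 120 (C1q range, 4 young UMIs). For Mrc1 it was lowest in the inflammatory range, with 24.2 CPM in adult and 12.1 CPM in young cells, and reached 4.22 in the C1q range. The ranges differed in size between the libraries: the heme range held 11.3% of adult and 26.9% of young Csf1r cells, and the MHC class II range 26.2% and 15.1%. In the 1028 adult and 1077 young cells that were in none of the 7 ranges, Clec4d stood at 339 CPM and 551 CPM, Mgl2 at 42.4 CPM and 1.73 CPM and Mrc1 at 41.5 CPM and 5.96 CPM. Over the 7 ranges the ratio of Clec4e stayed between 0.858 and 1.22 and Clec4a2 between 0.806 and 1.04. Clec4n passed 1.5-fold in the monocyte range, with 293 CPM in adult and 517 CPM in young cells (ratio 0.568, 0.541 to 0.596).

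**Figure D4:**
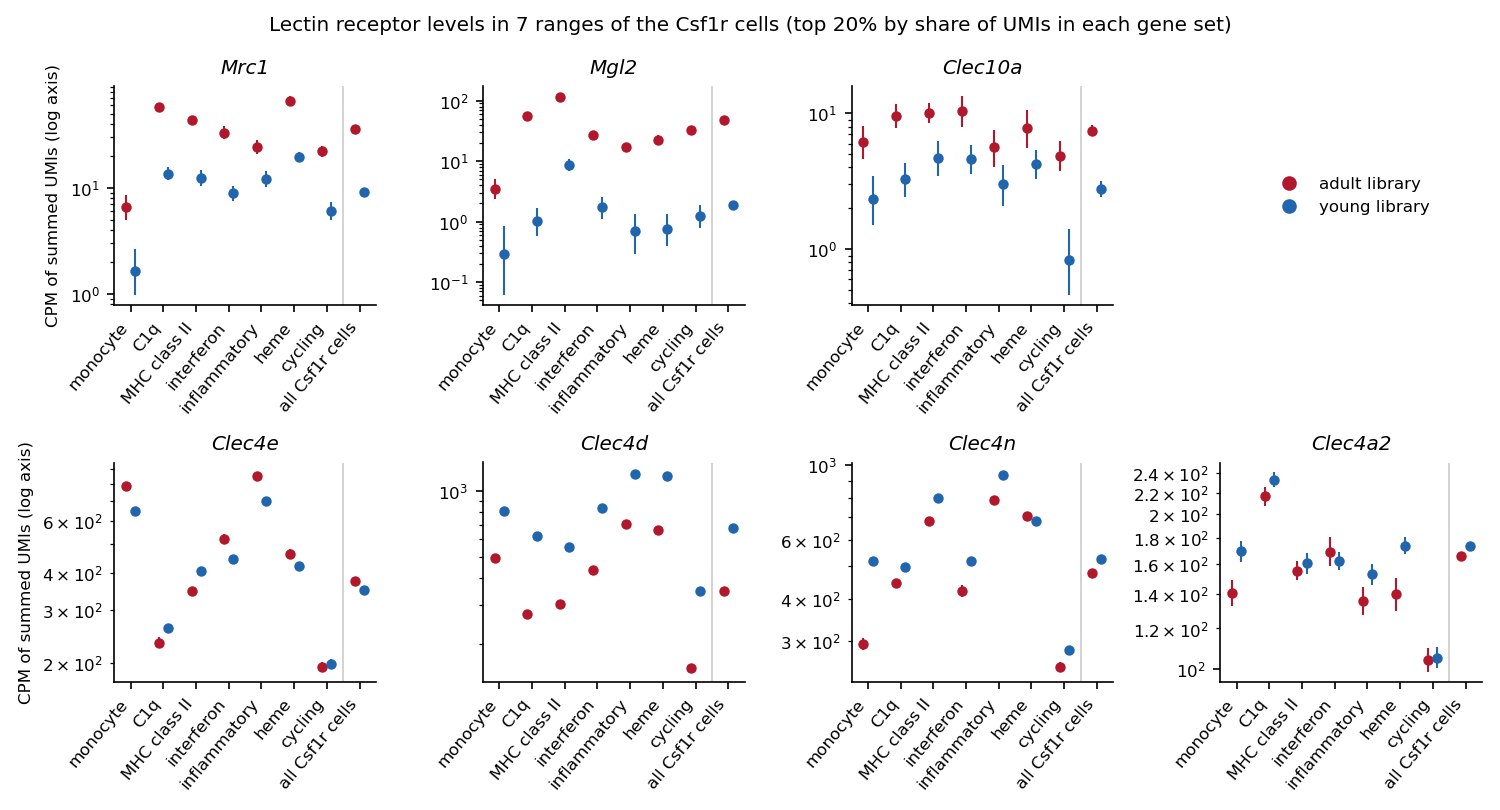
Level of each lectin gene in 7 ranges of the Csf1r cells and in the whole class, as CPM of summed UMIs on a log axis with exact Poisson 95% intervals, adult library left of young library. Adult points lie above young points in each range for Mrc1, Mgl2 and Clec10a and below them for Clec4d; Mgl2 peaks in the MHC class II range at 114 CPM in adult and 8.69 CPM in young cells.

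Across single Csf1r cells (4498 adult and 5686 young) the lectins of a group went together only in part. These are Pearson correlations of log(1 + counts per 10000), given as a description; the cells of a library share its depth and preparation. Clec4e and Clec4d had r of 0.36 in the adult and 0.23 in the young library, and Clec4d and Clec4n 0.32 and 0.34. Clec4a2 had r between -0.05 and 0.11 with the other 3 in the adult and between -0.07 and 0.09 in the young library. Mrc1 and Mgl2 had 0.17 and 0.05, which are low values in sparse counts. In the adult library 32.3% of cells with an Mrc1 UMI also held Mgl2, against 11.9% of cells without Mrc1. In the young library these shares were 3.56% and 0.926%. Mgl2 and Clec4d had r of -0.19 in the adult and -0.08 in the young library.

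**Figure D5:**
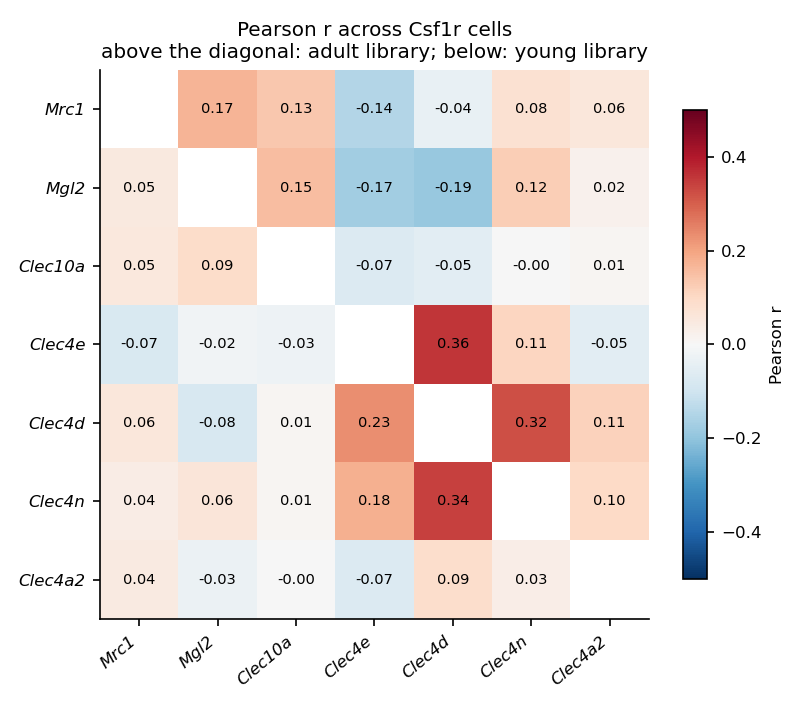
Pearson correlation of each pair of lectin genes across Csf1r cells, adult library above the diagonal and young library below it, with the value in each square. The pairs Clec4e with Clec4d (0.36 adult, 0.23 young) and Clec4d with Clec4n (0.32 adult, 0.34 young) are the darkest red, and Mgl2 with Clec4d is the lowest adult pair at -0.19.

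For each lectin the 3 most similar of 8029 candidate genes were taken over the same cells, ranked by the smaller of the adult and young correlations. Clec4e lay nearest to Il1b (0.39 adult, 0.37 young), which encodes interleukin 1 beta, to Sod2, the mitochondrial superoxide dismutase, and to Acod1, which makes itaconate. Clec4d lay nearest to Ninj1 (0.46 and 0.47), which ruptures the plasma membrane of dying cells, to Fth1, the ferritin heavy chain, and to Cstb, a cathepsin inhibitor. Clec4n lay nearest to the tetraspanin Cd9 (0.46 and 0.47), to the peroxiredoxin Prdx1 and to Fth1. Clec4a2 lay nearest to Ctsc (cathepsin C, 0.27 and 0.28), Aif1 and Itm2b. Mrc1 lay nearest to the chemokine Pf4 (0.26 and 0.27), to Ctsl (cathepsin L) and to the chemokine Ccl8. Mgl2 lay nearest to the lectin-like receptor gene Klrb1b (0.30 and 0.21), to Qpct, a glutaminyl cyclase, and to H2-DMb2, which loads MHC class II. For Clec10a the nearest gene, Qpct, had 0.07 in the adult and 0.06 in the young library, which is no likeness to rest on.

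Csf1r cells were further split by single genes, chosen after the values were seen. Csf1r cells with a Klrb1b UMI were 17.2% of the adult and 11.3% of the young class, and had medians of 14198 and 14644 UMIs. They held 55.5% of adult and 77.4% of young Mgl2 UMIs, at 122 CPM and 9.61 CPM, against 27.1 CPM and 0.50 CPM in Csf1r cells without Klrb1b. Clec4d ran the other way, with 211 CPM in adult and 380 CPM in young cells with Klrb1b. Cells without it had 386 CPM and 727 CPM and were shallower, with medians of 9691 and 10136 UMIs. Toward the deepest depth bin Clec4d fell from 565 to 205 CPM in adult and from 952 to 431 CPM in young cells. Mgl2 rose toward that bin, from 22.4 to 63.4 CPM in adult and from 0.269 to 3.14 CPM in young cells. The part of depth in this split was not tested. Csf1r cells with a UMI of Cdh1 (E-cadherin), which interleukin 4 induces in macrophages, were 26.0% of the adult and 6.45% of the young class. In the cells with Cdh1, Clec4d stood at 248 CPM in adult and 454 CPM in young cells. These cells were deeper as well, with medians of 13198.5 and 15545 UMIs, against 9569 and 10295 in cells without Cdh1. The part of depth was not tested here either. Mrc1 stood at 63.4 CPM in adult and 15.2 CPM in young cells with Cdh1, against 24.2 CPM and 8.45 CPM in cells without it. Adult Mgl2 was the higher one on both sides of the Klrb1b split, and so was adult Mrc1 on both sides of the Cdh1 split.

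The wider pathways were read from gene lists in Csf1r cells. Of 13 genes of the interleukin 4 and Stat6 response 10 were measured, 7 were called higher in the adult library and 0 lower, against 1.65% and 2.91% of all genes measured in the class, with a median log2 ratio of 1.16. Ccl24, an eosinophil chemokine, stood at 922 CPM in adult and 30.0 CPM in young cells, a ratio of 30.7 (29.4 to 32.1). The others were Ccl17, a ligand of the receptor Ccr4, at 64.8 and 3.15 CPM, Cdh1 at 40.9 and 6.58 CPM, the chitinase-like gene Chil3, the cytokine signalling inhibitor Socs2, the transcription factor gene Egr2 and Pdcd1lg2 (PD-L2). At least Ccl17, Cdh1 and Socs2 (10.1 and 4.10 CPM) passed the level filter through the adult library alone. Such genes can only come out higher in the adult library, so the count of calls is no test of the pathway. The receptor gene itself, Il4ra, was at the low end of the list, with 112 CPM in adult and 141 CPM in young cells (ratio 0.797).

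The signalling genes below the Clec4 receptors gave no calls. Of 15 ITAM, Syk and Card9 genes 14 were measured and 0 were called, which with 1.65% of all genes higher and 2.91% lower is no result about the pathway, and their median log2 ratio was -0.05. The adaptor gene Fcer1g stood at 4198 CPM in adult and 5091 CPM in young cells (ratio 0.825), and Syk at 70.4 and 84.7 CPM (0.831). The ratios of this list ran from 0.715 for the exchange factor gene Vav3 to 1.48 for the paracaspase gene Malt1. The 3 ITIM signalling genes Ptpn6, Ptpn11 and Inpp5d had ratios of 0.854, 0.991 and 0.863. Of 10 genes induced through Syk and Card9 6 were measured and 0 were called, from 0.794 for Tnf to 0.982 for Il1b, and with so few genes and the same shares over all genes these counts are no result about the lists either.

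Other C-type lectins mostly stayed within the limit as well. Of 23 listed genes 8 were measured, 1 was called higher and 0 lower, beside 1.65% and 2.91% of all genes. The higher one was Olr1, a receptor of oxidised lipoprotein, with 13.7 CPM in adult and 5.48 CPM in young Csf1r cells (ratio 2.51, 2.22 to 2.84). Olr1 too passed the level filter through the adult library alone. Clec4a1, a relative of Clec4a2, had the lowest ratio, 0.674, with 77.4 CPM in adult and 115 CPM in young cells. Among 10 endocytic partners 8 were measured and, beside the same shares, 1 was called, the scavenger receptor gene Cd36, lower in the adult library with 33.5 CPM against 55.8 CPM in young cells (ratio 0.600, 0.568 to 0.635). The clathrin-adaptor gene Dab2 had the highest ratio of that list, 1.13.

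In Ccr7 cells the interleukin 4 list had 12 measured members, of which Ccl24, Chil3 and Cdh1 were called higher and Ccl17 lower in the adult library, against 3.9% of all genes higher and 5.28% lower in that class. Ccl17 stood at 773 CPM in adult and 1308 CPM in young Ccr7 cells (ratio 0.591, 0.539 to 0.647), the opposite direction to that in Csf1r cells. The difference between the classes was not tested. Among other lectins, Ly75 (DEC-205), an endocytic receptor of dendritic cells, was higher with 58.2 CPM in adult and 18.9 CPM in young Ccr7 cells, and Klrb1b, Clec4a1 and Clec4a3 were lower. Cd209a had 11 UMIs in adult Ccr7 cells, all in 1 cell, and 0 in young ones. The 2 ITAM and Syk genes called, Syk and Lyn, and the 3 genes called among those induced through Syk and Card9, Il6, Cxcl1 and Cxcl2, were lower in adult Ccr7 cells. Cxcl2, a neutrophil chemokine, stood at 1221 CPM in adult and 2132 CPM in young Ccr7 cells. In neutrophils 1 of 8 measured other lectins was called, Clec12a, an inhibitory receptor gene, with 33 UMIs in adult and 9 in young cells. Ccl24 had 28 UMIs in adult and 1 in young neutrophils, and none of the 12 measured ITAM, Syk and Card9 genes was called there. Of all genes measured in neutrophils 3.06% were called higher and 5.89% lower, so these neutrophil counts are no result about the lists.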

How the data were processed

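Single cells of 2 libraries, 1 adult and 1 young, were analysed from the UMI counts per gene and barcode deposited by the authors. Per the submitters' processing notes, Cell Ranger 3.0.2 and the mm10 build were used. The gene annotation and the barcode filter are not given among the sources used here. The lowest barcode held 500 UMIs. Of the feature identifiers, 99.61% were in GENCODE M21. Features sharing a symbol (71) were kept apart by identifier.

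Barcodes under 200 detected genes or above 10% of UMIs from mitochondrial genes were left out, 505 in the adult and 468 in the young library. No doublet caller was run; instead the 6% of cells with the most UMIs were left out as an alternative. Classes were set by gene rules in the order neutrophils, Ccr7 cells, mCherry-high cells, T cells, Csf1r cells and others, and no clusters were made. At the limits of these rules, 33 adult and 26 young neutrophils had under 2% S100a8 and S100a9, 99 and 98 cells had exactly 1 Ccr7 UMI, and 779 and 1096 Csf1r cells had 1 Csf1r UMI. UMIs were summed per class and library, with exact Poisson, Clopper-Pearson and conditional binomial intervals (95%). The 7 lectins, all genes of the lists that were called, and each list's ends were eligible to be named. The members, lists and ranges were chosen with earlier results of these data known. Scripts ran in Python 3.11.15 with numpy 2.4.6, scipy 1.17.1, pandas 2.3.3 and matplotlib 3.10.9 and were tested on simulated data. The alternatives changed scaling, cell filter, class rules, depth (thinning), level filter, fold and the width of the ranges. Thinning to 1000 UMIs, leaving out barcodes shared by the libraries, Csf1r cells with 0 S100a8 and S100a9 UMIs, and Ccr7 cells with 0 Csf1r UMIs were added after seeing the data.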

Additional observations from a re-analysis of the deposited data

Results flagged for a closer look

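Ccl17, one of the interleukin 4 response genes beside the lectins, passed the limit in opposite directions in 2 cell classes of the same libraries. The adult over young ratio was 20.5 in Csf1r cells, where it stood at 64.8 CPM in adult and 3.15 CPM in young cells, and 0.591 in Ccr7 cells, where it stood at 773 CPM in adult and 1308 CPM in young cells. With 1 library per age the difference between the classes was not tested. No lectin was called in opposite directions in different classes.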

How the results depend on the processing

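No paired analysis was possible because each age had 1 library, and for the same reason no replicate could be left out. Of 648 alternative values for 90 single-gene ratios, 600 kept the same call, 20 lost the call, 26 gained it and 2 reversed. The 600 include uncalled ratios that changed direction, and the level filter was not applied to these single-gene calls. In Csf1r cells the adult over young ratios stayed within 22.4 to 31.3 for Mgl2, 3.66 to 4.80 for Mrc1, 0.505 to 0.539 for Clec4d and 1.03 to 1.11 for Clec4e over 15 alternatives. The cause of the changes below was not tested. Median-of-ratios scaling moved the log2 ratios of all genes by -0.14 between ages in neutrophils, by 0.53 (adult) and 0.43 (young) between Csf1r cells and neutrophils, and by -0.13 between young Ccr7 and Csf1r cells.

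Both reversals were of Clec10a in Ccr7 cells with a Fscn1 UMI, to 0.179 for adult over young and to 0.469 for Ccr7 over Csf1r cells in the adult library. In Csf1r cells 2 lectins were called higher and 1 lower between ages. At a minimum of 50 CPM 0 were higher, and at a fold of 2 0 were lower, Clec4d being at 0.516. Over all genes there, 111 were higher and 196 lower. Thinning to 1000 UMIs gave 208 and 362, a minimum of 50 CPM 32 and 93, no level filter 674 and 705, and a fold of 2 gave 48 and 34. In neutrophils 176 genes were higher and 339 lower, but 268 and 220 under median-of-ratios scaling. There 103 were higher and 188 lower after thinning to 1000 UMIs, 216 were lower after thinning to 2000 and 112 higher at a fold of 2.

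In Ccr7 cells, 1 lectin was higher and 1 lower between ages. The higher count was 3 with 1 or more Ccr7 UMIs and 0 with Fscn1, with cells weighted equally, at either thinning, without cells with Csf1r and at a fold of 2. The lower count was 3 with Fscn1 and without cells with Csf1r, 2 thinned to 2000 and 0 thinned to 1000 UMIs. Of all genes, 262 were higher and 355 lower. The higher count became 395 with cells weighted equally, 101 and 72 at the 2 thinnings, 150 without cells with Csf1r, 93 at 50 CPM and 161 at a fold of 2. The lower count became 166 and 84 at the thinnings, 188 at 50 CPM and 181 at a fold of 2.

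Between classes, Csf1r cells over neutrophils had 3 adult lectins higher, but 1 at 50 CPM, and 1 young lectin higher, but 0 under median-of-ratios scaling. Ccr7 over Csf1r cells had 1 adult lectin higher, but 0 with 1 or more Ccr7 UMIs, with Fscn1, without cells with Csf1r and at 50 CPM, and 2 with cells weighted equally. The adult count of 3 lower became 5 with Fscn1 and without cells with Csf1r. Of the young counts, the 2 higher became 1 with 1 or more Ccr7 UMIs, thinned to 1000 and at 50 CPM. The 2 lower became 0 with 1 or more Ccr7 UMIs, 4 with Fscn1 and without cells with Csf1r, and 1 thinned to 2000 UMIs. With the top 10% in place of the top 20%, the Clec10a ratio in the inflammatory (1.69) and heme (1.17) ranges no longer passed 1.5-fold with an interval that excluded 1. Clec10a was under 10 CPM in both libraries in these ranges, so by the level filter it was not called at either width. Mgl2 gave no value in the monocyte range, where the young library had 0 UMIs.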
